A study of Mus musculus with 24 samples.

Results

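Tumours treated with diphtheria toxin (DT) were compared at 96 h and at 24 h, and the change was set beside that of saline-treated tumours between the same times. The comparison holds the 4 DT libraries labelled 96 h against the 4 labelled 24 h, 8 of the 24 libraries of the series, across all genes. The 4 saline libraries of 96 h and the 4 of 24 h gave the change without toxin, and the libraries of 48 h served to show the course. All tumours derived from mouse small intestine and carried the genotype recorded as AKVPL, whose letters the labels do not spell out, and the toxin served to remove the cells that express Lgr5. EpCAM, a surface protein by which epithelial cells are sorted, is part of each sample name, and the sort is recorded as bulk; polyadenylated RNA of the sorted cells was sequenced. The labels give no dose, strain, age or depletion allele.

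Lgr5 is a receptor for R-spondins that amplifies Wnt signalling and marks the dividing stem cells at the base of intestinal crypts. Diphtheria toxin blocks protein synthesis by inactivating elongation factor 2 and kills cells that carry its receptor. In the normal intestine, loss of Lgr5+ cells is followed by their return from neighbouring crypt cells, and the time after depletion is therefore studied as a time of regeneration. Interferons are signals made by cells that sense foreign or misplaced nucleic acid or cell damage, and they switch on many antiviral genes through a complex of STAT proteins and IRF9.

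Total counts per library were 11510459 to 24342953 in DT libraries at 96 h, 11315650 to 27633431 in DT libraries at 24 h, 14401736 to 24202680 in saline libraries at 96 h and 13126002 to 14644021 in saline libraries at 24 h. Levels are given as CPM, counts relative to the TMM-scaled library size, and they compare 1 gene between libraries, not genes with each other. Of 15 epithelial identity genes measured, 2 were higher and 2 lower in DT libraries at 96 h, against 16.6% and 20.9% of all genes. Epcam itself averaged 1410 CPM at 96 h and 1320 CPM at 24 h. Transcripts of other cells were also present: in the 8 DT libraries, 15 of 15 fibroblast markers, 11 of 12 endothelial markers and 8 of 15 macrophage markers averaged at least 10 CPM. Of 13 T and NK cell markers all averaged under 1 CPM, and Cd3g, Nkg7, Prf1 and Ncr1 had no count. On the first principal component, which held 28.4% of the variance, DT libraries at 96 h lay between -6.86 and -1.12, DT libraries at 24 h between -54.99 and -42.12 and saline libraries of all times between 17.15 and 26.73. The second component (17.2%) was lower at 96 h in both treatments. DT libraries lay between -33.74 and -8.78 at 96 h and between 7.52 and 31.31 at 24 h. Saline libraries lay between -28.7 and 11.49 at 96 h and between 26.3 and 34.23 at 24 h. Whether the 4 libraries of a group were taken from different animals is not stated in the labels. The p-values therefore reflect only how far these libraries spread, and that spread may be technical.

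Between 24 and 96 h after DT, 2891 of 17468 genes rose (16.6%) and 3657 fell (20.9%), 6548 in all (37.5%). Calls are those of edgeR's quasi-likelihood test at a Benjamini-Hochberg adjusted p under 0.05. Of these, 392 of the genes that rose and 441 of those that fell moved by at least 2-fold, and the median log2 change over all genes was 0.02. In saline tumours 365 genes (2.09%) rose and 198 (1.13%) fell between the same times, 563 in all (3.22%). This saline count rested on single libraries. It was 91 without replicate 2 of saline at 96 h, 1218 without replicate 1, 219 without replicate 3 and 275 without replicate 4. It was 165, 133 and 183 without replicate 1, 2 or 4 of saline at 24 h. The DT count stayed between 5393 and 6660 when any 1 of the 16 libraries of these times was left out.

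The change after DT differed from the change after saline for 2079 genes (11.9%) by a test of the difference itself, with 713 (4.08%) moving more upward and 1366 (7.82%) more downward in DT tumours. Of the 2891 genes that rose after DT, 219 (7.58%) also rose in saline, which is 60% of the saline increases, and 639 (22.1%) differed from saline in the same direction. Of the 3657 genes that fell after DT, 121 (3.31%) also fell in saline, 61.1% of the saline decreases, and 1311 (35.8%) differed from saline in the same direction. The members of these groups had median log2 changes of 0.45 after DT and 0.09 after saline for the genes that rose, and of -0.41 after DT and -0.08 after saline for the genes that fell. The DT changes were used to choose those members, so their saline medians alone are free of that choice. DT and saline courses share no library. Counts of list members below stand against the shares of all genes. These were 16.6% that rose and 20.9% that fell after DT, and 2.09% and 1.13% after saline. For the difference they were 4.08% upward and 7.82% downward.

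**Figure D1:**
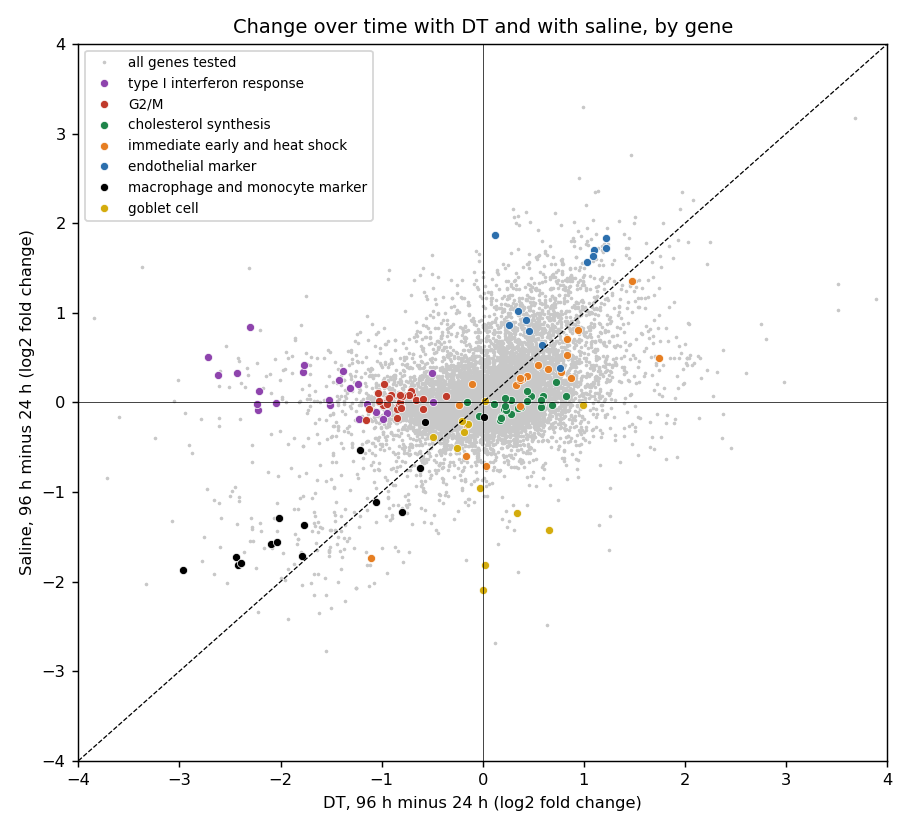
Change between 24 and 96 h in DT libraries (x axis, log2) against the change in saline libraries (y axis, log2) for each gene tested, with members of 7 gene lists coloured. The dashed line marks an equal change, 7 genes lie outside the axes at 4 log2 units, and all interferon and G2/M genes lie left of 0 on the x axis (list medians -1.47 and -0.85), with saline medians of 0.10 and 0.03.

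Lgr5, the targeted gene (Entrez 14160; chromosome 10), had 125, 125, 135 and 123 CPM in DT libraries at 96 h, against 84.1, 84.9, 77 and 79.6 CPM in DT libraries at 24 h. Every library of 96 h lay above every library of 24 h, and the groups did not overlap. Lgr5 rose 1.56-fold, a log2 change of 0.64 ± 0.12 (log2 changes are given ± SE throughout), with an adjusted p of 0.000345 in edgeR. Saline libraries had 170, 182, 152 and 181 CPM at 96 h, against 179, 209, 194 and 217 CPM at 24 h, a change of -0.22 that did not pass the test (adjusted p = 0.346). The change after DT exceeded that after saline by 0.86 ± 0.17 (adjusted p = 0.00232). At 48 h DT libraries held 95.4, 117, 171 and 98.7 CPM, so that 1 library of that time lay above all 4 of 96 h. In bulk RNA, fewer cells of a type and less RNA per cell cannot be told apart.

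Of 22 Lgr5+ stem cell genes measured, 6 rose and 1 fell after DT, with a median log2 change of 0.11 against 0.02 over all genes, and 5 differed upward from saline. The share that rose was above the 16.6% of all genes that did. Rgmb, a co-receptor for bone morphogenetic proteins, had 29.4, 29.7, 28.4 and 25.3 CPM at 96 h, against 17.7, 20.3, 20.6 and 18.1 CPM at 24 h after DT. All libraries of 96 h lay above all of 24 h (log2 change 0.55 ± 0.08, adjusted p = 1.96e-05; difference from saline 0.53, adjusted p = 0.00404). Tnfrsf19 (Troy), a Wnt target expressed in crypt stem cells, averaged 217 CPM at 96 h and 163 CPM at 24 h (0.41, adjusted p = 0.00306). Ascl2, a transcription factor of crypt stem cells, averaged 28.1 CPM at 96 h and 33.1 CPM at 24 h and did not pass the test (-0.24, adjusted p = 0.105). The crypt stem cell gene Smoc2 averaged 619 CPM at 96 h and 575 CPM at 24 h (0.11, adjusted p = 0.379).

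Among 23 Wnt targets and feedback genes, 9 rose and 2 fell after DT (median 0.22), and 5 differed upward from saline and 0 downward. This list shares members that rose with the stem cell list, the targeted gene Lgr5 among them, so both counts are not separate results. The genes that rose include secreted or membrane inhibitors of the pathway. Notum, a secreted enzyme that removes the lipid of Wnt proteins, averaged 473 CPM at 96 h and 331 CPM at 24 h (0.52, adjusted p = 0.00169; difference from saline 0.75, adjusted p = 0.00527). Nkd1, an intracellular inhibitor, averaged 707 CPM at 96 h and 533 CPM at 24 h (0.41, adjusted p = 0.0032; difference from saline 0.63, adjusted p = 0.00593). Rnf43, a ligase that removes Wnt receptors from the surface, had 557, 596, 559 and 585 CPM at 96 h, against 503, 430, 395 and 523 CPM at 24 h (0.31 ± 0.07, adjusted p = 0.0017; difference from saline 0.39, adjusted p = 0.0138). The groups did not overlap. Axin2, the classical feedback target, did not pass the test (581 CPM at 96 h and 538 CPM at 24 h; 0.11, adjusted p = 0.397). The 2 members that fell were Sp5 (-0.78, adjusted p = 0.00048) and Myc (-0.60 ± 0.07, adjusted p = 7.52e-07), and Myc also fell after saline (-0.48, adjusted p = 0.000378).

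**Figure D2:**
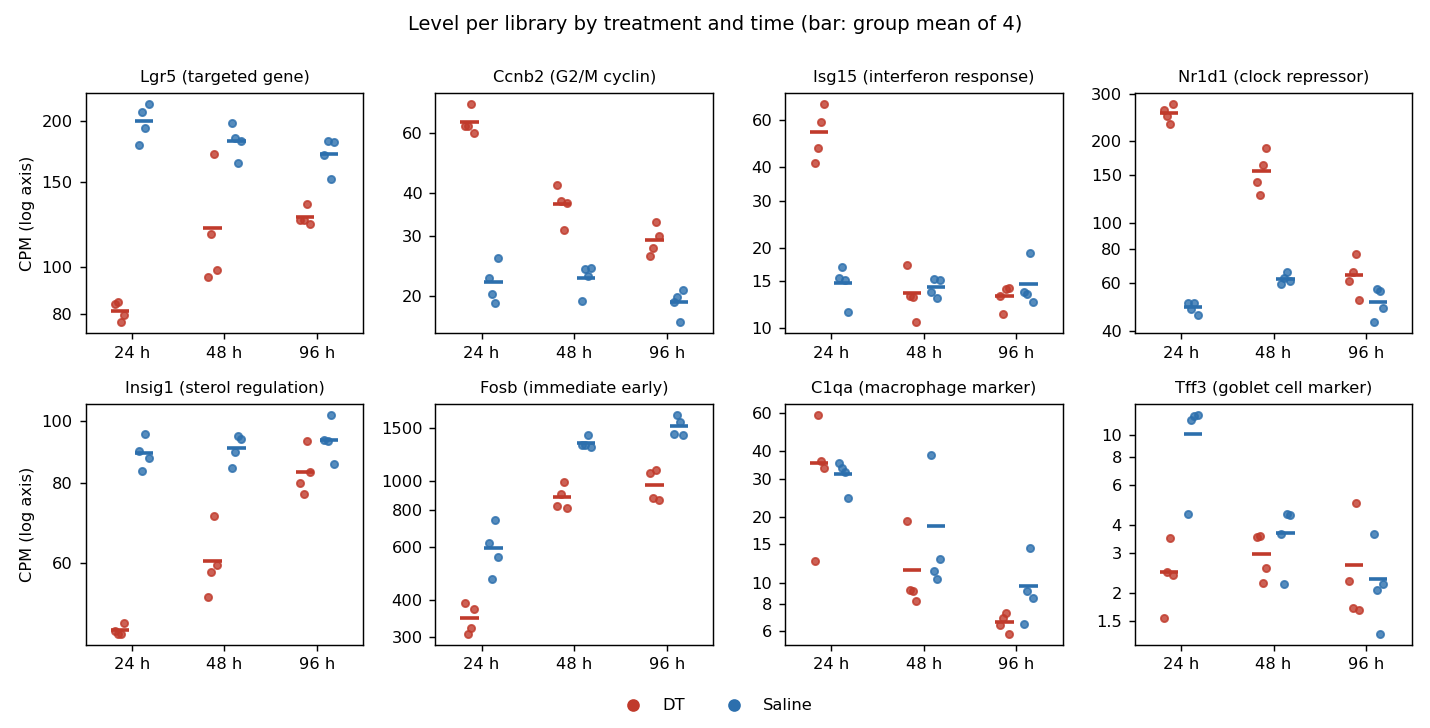
CPM (log axis) of 8 genes in each library at 24, 48 and 96 h, with DT libraries in red to the left of saline libraries in blue and a bar at each mean of 4. Lgr5 is higher and Isg15, Ccnb2 and Nr1d1 are lower in DT libraries at 96 h than at 24 h, while Fosb is higher and C1qa lower at 96 h in both treatments.

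All 24 measured type I interferon response genes fell after DT, against 20.9% of all genes, with a median log2 change of -1.47. None of them passed the test in saline, where their median change was 0.10, and 23 of 24 differed downward from saline. The exception was Ifit1 (difference -0.87, adjusted p = 0.0586). Isg15, a ubiquitin-like protein that is attached to proteins in infected cells, had 13.2, 11.3, 14 and 14.1 CPM at 96 h, against 41.6, 47.1, 59 and 69.2 CPM at 24 h. The groups did not overlap, and the change was -2.05 ± 0.16 (adjusted p = 1.18e-08). Irf7, the transcription factor that amplifies interferon production, had 35, 25.1, 39.8 and 42.2 CPM at 96 h, against 116, 152, 159 and 236 CPM at 24 h (-2.23 ± 0.21, adjusted p = 2.76e-07). Bst2 (tetherin), which holds budding viruses at the cell surface, had 32.7, 22.2, 26.8 and 36.2 CPM at 96 h, against 104, 122, 169 and 151 CPM at 24 h (-2.21 ± 0.18, adjusted p = 1.66e-08). In each of these genes the groups were far apart. Genes named from the lists were mostly those with the smallest p or the largest change. Such separation is therefore no added support for a list.

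The oligoadenylate synthetases, which sense double-stranded RNA and activate RNase L, were among the largest decreases. Oas3 had 5.87, 2.75, 4.45 and 5.78 CPM at 96 h, against 21.8, 30.2, 31.8 and 40 CPM at 24 h (-2.72 ± 0.22, adjusted p = 1.18e-08), a 6.57-fold difference. Oas1a had 9.24, 6.78, 8.56 and 10.2 CPM at 96 h, against 37.5, 32.7, 43.1 and 48.7 CPM at 24 h (-2.22 ± 0.16, adjusted p = 3.59e-09). Reads of Oas1a and Oas1g may be divided among near-identical copies of the family. Signalling components also fell: Stat2 averaged 63 CPM at 96 h and 89.1 CPM at 24 h (-0.50, adjusted p = 0.000993), and Irf9 averaged 90.6 CPM at 96 h and 127 CPM at 24 h (-0.49, adjusted p = 9.12e-05). Usp18, the protease that removes Isg15 and limits receptor signalling, averaged 57.7 ± 7.95 CPM at 96 h and 164 ± 37.2 CPM at 24 h (SD, n = 4 each). The mean at 96 h lay below that of saline libraries for Usp18 (75.2 CPM at 96 h and 76.6 CPM at 24 h in saline), a comparison that was not tested. Libraries of 96 h overlapped slightly, with 46.4 to 63.9 CPM after DT and 63.6 to 85.1 CPM after saline.

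The course of the list placed most of this fall before 48 h. The median log2 change was -1.58 from 24 to 48 h and 0.10 from 48 to 96 h. In ratios of mean CPM of DT over saline libraries, which share the DT libraries with the course, the list median was 1.61 at 24 h, -0.02 at 48 h and 0.10 at 96 h on the log2 scale. Isg15 at 48 h after DT had 17.2, 13.2, 13.1 and 10.5 CPM, inside or near the range of 96 h.

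Promoter sequences are shown for the 3 interferon and 3 G2/M genes with the smallest p after DT whose promoter holds the motif searched, since members of both lists moved together. They run from 250 bases before to 50 bases after the start of transcription, 5′ to 3′ on the gene's strand, and are RefSeq sequences of GRCm38.p6. Of the 24 interferon genes, 19 had a promoter there. Capitals in the first set mark the core of the interferon-stimulated response element, GAAANNGAAA on either strand, with overlapping matches merged. Oas1a has 2 overlapping matches (chr5:120907476-120907775, minus strand), Oas3 has 1 (chr5:120777610-120777909, minus strand) and Isg15 has 3 that overlap in a chain (chr4:156200769-156201068, minus strand).
Oas1a: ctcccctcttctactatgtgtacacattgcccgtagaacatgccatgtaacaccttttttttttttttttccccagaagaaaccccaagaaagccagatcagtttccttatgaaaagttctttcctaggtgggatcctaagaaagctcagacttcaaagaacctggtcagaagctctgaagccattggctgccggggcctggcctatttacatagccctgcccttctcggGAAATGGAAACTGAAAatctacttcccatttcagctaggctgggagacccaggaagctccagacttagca
Oas3: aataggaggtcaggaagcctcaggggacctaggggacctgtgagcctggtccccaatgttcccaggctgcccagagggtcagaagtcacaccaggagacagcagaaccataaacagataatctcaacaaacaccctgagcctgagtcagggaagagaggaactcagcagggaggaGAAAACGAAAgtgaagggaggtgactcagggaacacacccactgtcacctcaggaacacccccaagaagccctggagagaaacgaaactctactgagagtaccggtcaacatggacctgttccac
Isg15: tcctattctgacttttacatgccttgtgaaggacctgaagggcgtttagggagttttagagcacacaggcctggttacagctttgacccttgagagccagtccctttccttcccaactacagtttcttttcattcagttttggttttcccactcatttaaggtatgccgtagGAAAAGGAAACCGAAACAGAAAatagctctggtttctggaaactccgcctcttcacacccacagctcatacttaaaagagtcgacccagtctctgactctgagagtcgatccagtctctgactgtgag

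This core was in 11 of 19 interferon promoters (57.9%), and in 3.99% of the promoters of 27025 genes and 3.52% of those of 12606 genes tested here. A match is a string of letters and says nothing on binding in these cells.

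Cell division genes formed the next group. All 25 measured G2/M genes fell after DT (median -0.85), 0 passed the test in saline (median 0.03), and 23 differed downward from saline, the exceptions being Nusap1 and Cenpf. Ccnb2, a cyclin that drives entry into mitosis, had 26.2, 27.6, 33 and 29.9 CPM at 96 h, against 63, 63.1, 73.3 and 60.1 CPM at 24 h. Every library of 24 h lay far above every library of 96 h (-1.16 ± 0.10, adjusted p = 4.75e-08; difference from saline -0.96, adjusted p = 0.000309). Kif20a, a kinesin of cytokinesis, had 47.6, 49.2, 50.8 and 50.6 CPM at 96 h, against 81.7, 86.1, 104 and 83.7 CPM at 24 h (-0.85 ± 0.09, adjusted p = 3.32e-07). Mki67, the common proliferation marker, averaged 160 CPM at 96 h and 253 CPM at 24 h (-0.66, adjusted p = 0.000195).

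DNA replication genes followed, with 26 of 27 S phase genes lower after DT (median -0.72), 0 called in saline (median -0.04) and 25 differing downward from saline. Rrm2, the subunit that limits deoxynucleotide synthesis, had 16.3, 18.4, 15.8 and 20.6 CPM at 96 h, against 41.5, 56, 76.4 and 36.5 CPM at 24 h. The groups were apart, with more spread among libraries of 24 h (-1.57, adjusted p = 7.48e-07). Mcm3, a subunit of the replicative helicase, had 76.2, 76.7, 68.1 and 88.6 CPM at 96 h, against 141, 137, 180 and 113 CPM at 24 h (-0.88 ± 0.10, adjusted p = 1.46e-06).

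The cell division lists kept positive log2 ratios of DT over saline at 48 and 96 h. The G2/M median changed by -0.66 from 24 to 48 h and by -0.22 from 48 to 96 h. The median log2 ratio of DT over saline for G2/M genes was 1.28 at 24 h, 0.53 at 48 h and 0.45 at 96 h. The S phase median changed by -0.52 and then -0.12, with log2 ratios of 0.86, 0.29 and 0.23. Ccnb2 at 96 h after DT stood at 26.2 to 33 CPM, above all saline libraries of that time (16.7 to 20.8 CPM). These ratios were not tested as lists.

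The promoters of 3 G2/M genes hold the core of the cell cycle genes homology region, TTTGAA on either strand, which is in capitals. It has 2 matches in Ccnb2 (chr9:70421505-70421804, minus strand), 1 in Cdc20 (chr4:118437294-118437593, minus strand) and 1 in Plk1 (chr7:122159185-122159484, plus strand).
Ccnb2: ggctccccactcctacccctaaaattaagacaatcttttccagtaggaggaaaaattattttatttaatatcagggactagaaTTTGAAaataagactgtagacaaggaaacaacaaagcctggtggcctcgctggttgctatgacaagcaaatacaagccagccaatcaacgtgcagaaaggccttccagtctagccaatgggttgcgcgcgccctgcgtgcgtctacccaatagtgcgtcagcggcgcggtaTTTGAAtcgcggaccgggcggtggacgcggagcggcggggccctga
Cdc20: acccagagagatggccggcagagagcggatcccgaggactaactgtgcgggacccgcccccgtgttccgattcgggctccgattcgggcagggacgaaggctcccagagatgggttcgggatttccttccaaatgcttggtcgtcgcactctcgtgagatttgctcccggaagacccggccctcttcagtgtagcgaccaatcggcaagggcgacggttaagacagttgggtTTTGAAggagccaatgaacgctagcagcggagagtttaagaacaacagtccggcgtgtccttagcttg
Plk1: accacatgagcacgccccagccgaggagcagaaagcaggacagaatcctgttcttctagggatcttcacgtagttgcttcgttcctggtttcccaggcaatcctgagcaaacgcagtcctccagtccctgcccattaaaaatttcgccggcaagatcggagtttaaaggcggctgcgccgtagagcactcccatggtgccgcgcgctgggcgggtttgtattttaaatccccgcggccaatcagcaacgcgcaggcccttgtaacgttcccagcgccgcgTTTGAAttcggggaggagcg

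Of 20 G2/M genes with a promoter, 15 held this core (75.0%), as did 20.2% of all genes with a promoter and 15% of those tested. The CCAAT box, searched on both strands, was in 17 of 20 (85.0%), 41.1% and 42.1%. Both were in 14 of 20 (70.0%), 7.97% and 6.07%.

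**Figure D3:**
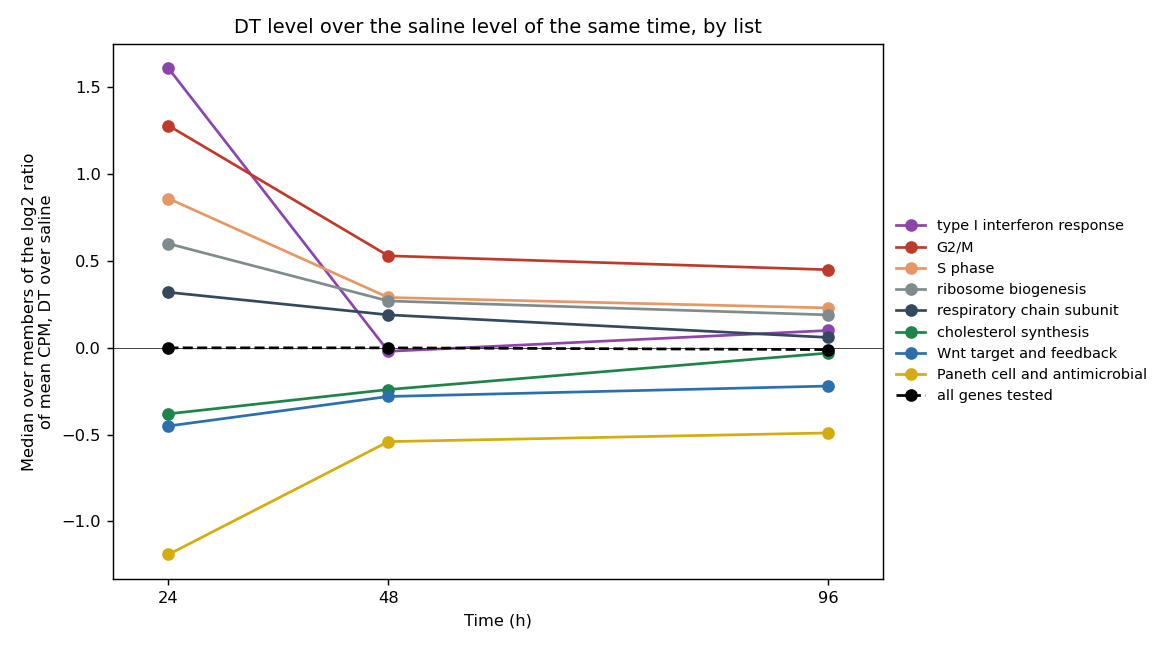
Median, over the members of 8 gene lists and over all genes tested, of the log2 ratio of mean CPM in DT over saline libraries (y axis) at 24, 48 and 96 h (x axis). The interferon line lies at 1.61 at 24 h and -0.02 at 48 h, while the G2/M line lies at 1.28, 0.53 and 0.45.

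Genes of ribosome making and mitochondrial respiration had smaller changes in nearly all members. All 25 measured ribosome biogenesis factors fell after DT (median -0.51), 1 fell in saline and 16 differed downward from saline. Nop56, a core protein of the complex that methylates ribosomal RNA, had 105, 116, 104 and 101 CPM at 96 h, against 195, 180, 203 and 167 CPM at 24 h. The groups did not overlap (-0.80 ± 0.07, adjusted p = 1.44e-08; difference from saline -0.89, adjusted p = 6.1e-06). Mybbp1a, a nucleolar protein, averaged 351 ± 17.8 CPM at 96 h and 548 ± 43 CPM at 24 h (-0.64 ± 0.05, adjusted p = 1.27e-08). Ncl (nucleolin) averaged 756 CPM at 96 h and 1120 CPM at 24 h (-0.56, adjusted p = 2.1e-06). Median log2 ratios of DT over saline for the list were 0.60 at 24 h, 0.27 at 48 h and 0.19 at 96 h.

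Of 30 nuclear-encoded subunits of the respiratory chain and ATP synthase, 29 fell after DT (median -0.40), against 0 in saline (median -0.15). That saline count ran from 0 to 8 under the other settings. Cyc1, the cytochrome of complex III, had 132, 136, 135 and 140 CPM at 96 h, against 210, 216, 261 and 223 CPM at 24 h. The libraries of 96 h lay close together and below all of 24 h (-0.75, adjusted p = 2.82e-07; difference from saline -0.67, adjusted p = 0.000437). Ndufs1, a subunit of complex I, averaged 101 ± 3.18 CPM at 96 h and 139 ± 7.63 CPM at 24 h (-0.46 ± 0.04, adjusted p = 1.34e-07). Atp5b, the catalytic subunit of ATP synthase, averaged 1150 ± 27.8 CPM at 96 h and 1660 ± 114 CPM at 24 h (-0.53 ± 0.06, adjusted p = 2.37e-06), and copies elsewhere in the genome may share its reads. The difference from saline was called for 12 members. That number was 7 without replicate 1 of DT at 24 h, 4 and 7 without replicates 3 and 4 of DT at 96 h, 4, 3 and 5 without replicates 2, 3 and 4 of saline at 24 h, and 3 without replicate 3 of saline at 96 h.

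Cholesterol synthesis genes moved the other way. Of 24 measured, 13 rose and 0 fell after DT (median 0.28), 0 passed in saline (median -0.03), and 11 differed upward from saline. Insig1, which holds the sterol sensor SCAP in the endoplasmic reticulum, had 79.8, 76.7, 93.1 and 83.1 CPM at 96 h, against 47, 46.5, 46.5 and 48.3 CPM at 24 h. The libraries of 24 h were nearly equal and far below all of 96 h (0.82 ± 0.08, adjusted p = 7.8e-08; difference from saline 0.75, adjusted p = 0.000138). Hmgcs1, an early enzyme of the pathway, had 256, 242, 263 and 259 CPM at 96 h, against 149, 164, 166 and 157 CPM at 24 h (0.68 ± 0.09, adjusted p = 4.41e-06). In both genes the times were fully separated.

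Srebf2, the transcription factor of the pathway, averaged 463 CPM at 96 h and 357 CPM at 24 h after DT (0.38, adjusted p = 2.27e-05). Dhcr7, the enzyme of a last step, did not pass the test (67.7 CPM at 96 h and 62.5 CPM at 24 h; 0.11, adjusted p = 0.279). The median log2 ratio of DT over saline for the list was -0.38 at 24 h, -0.24 at 48 h and -0.03 at 96 h. Among 15 fatty acid synthesis genes 3 rose and 0 fell, a share near the 16.6% of all genes, and that count ran from 1 to 5 under the other settings. The desaturase Scd2 averaged 953 CPM at 96 h and 755 CPM at 24 h (0.34, adjusted p = 0.00177).

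Nr1d1 and Txnip shared the smallest adjusted p of all genes. Nr1d1 (REV-ERB alpha), a repressor of the circadian clock, had 60.9, 65.8, 77 and 52 CPM at 96 h, against 261, 249, 232 and 275 CPM at 24 h after DT. At 48 h DT libraries had 142, 127, 163 and 189 CPM, between both groups. The change was -1.99 ± 0.11 (adjusted p = 1.43e-10), a 3.98-fold difference, against 0.06 in saline (adjusted p = 0.837), whose libraries had 42.9 to 57 CPM at 96 h and 45.7 to 50.7 CPM at 24 h. The gene overlaps Thra on the other strand, and the use of strand in counting is stated nowhere in the labels. Thra averaged 46.7 CPM at 96 h and 36.9 CPM at 24 h (0.34 ± 0.11, adjusted p = 0.0231), a change of the opposite sign.

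Of 17 clock genes measured, 8 fell and 2 rose after DT, against 20.9% and 16.6% of all genes. From saline 6 differed downward, against 7.82%. The list median was 0.11, opposite in sign to most calls. Dbp, an output gene of the clock, had 12.3, 14.3, 14.2 and 12 CPM at 96 h, against 20.3, 27.4, 26.4 and 30.1 CPM at 24 h (-0.99, adjusted p = 5.08e-07). The core activator Arntl averaged 21 CPM at 96 h and 26.5 CPM at 24 h (-0.33, adjusted p = 0.00586). Per3 rose (45.6 CPM at 96 h and 33.2 CPM at 24 h; 0.47, adjusted p = 0.0127), as did Bhlhe40 after both DT and saline (0.42 and 0.57). The labels do not give the time of day at which tumours were collected. Txnip, which binds thioredoxin and limits glucose uptake, had 229, 222, 296 and 199 CPM at 96 h, against 667, 657, 646 and 680 CPM at 24 h (-1.49 ± 0.09, adjusted p = 1.43e-10). It also fell in saline (-0.66, adjusted p = 0.000153), by less (difference -0.83, adjusted p = 0.000206).

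**Figure D4:**
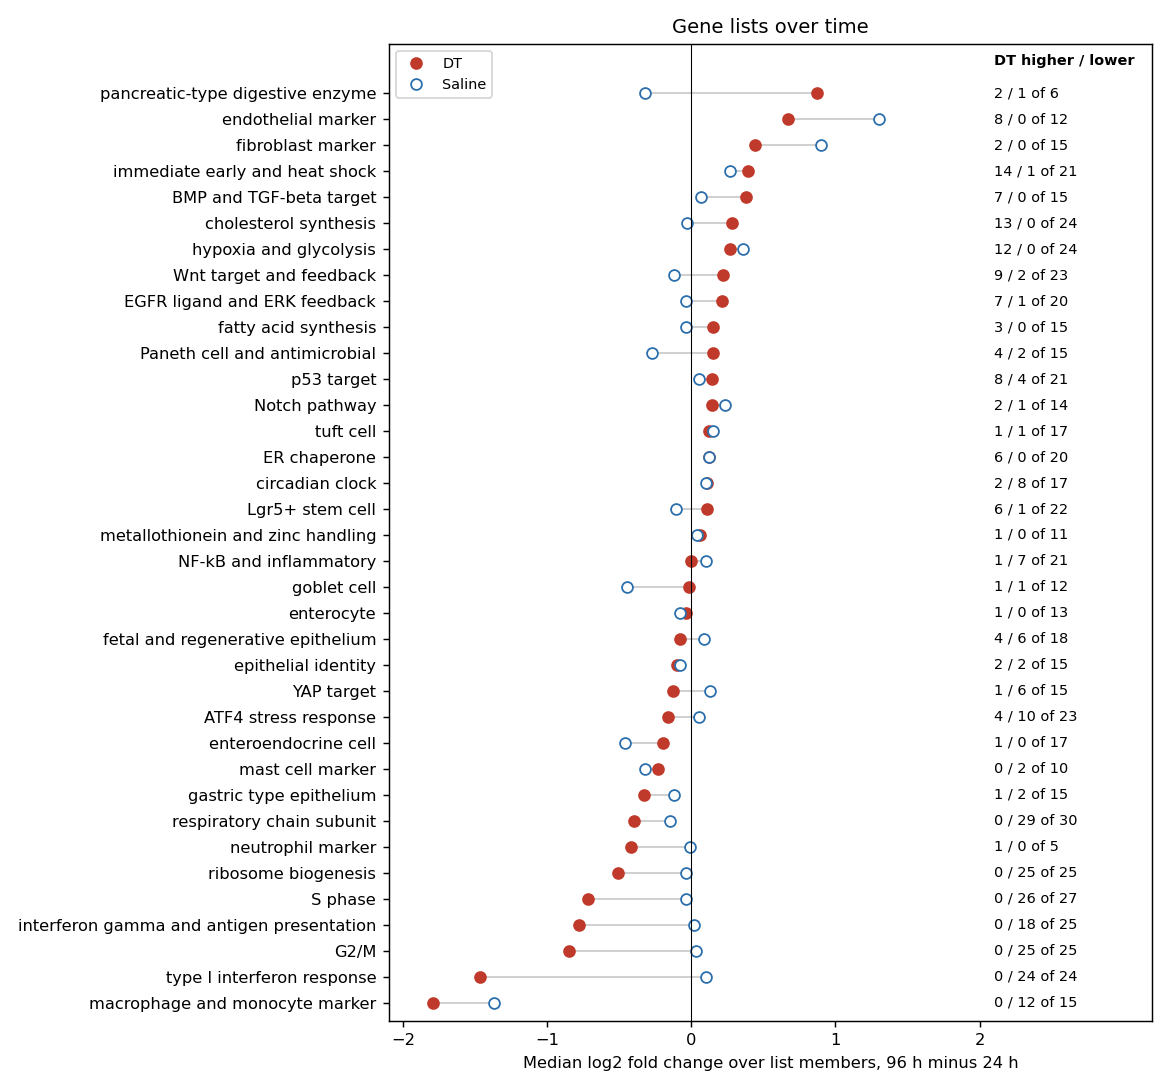
Median log2 change between 24 and 96 h over the measured members of each gene list with at least 5 of them, in DT libraries (filled) and saline libraries (open), with the number of members higher and lower after DT. The macrophage (-1.79), type I interferon (-1.47), G2/M (-0.85) and interferon gamma (-0.78) lists have the lowest DT medians, and of these 4 the macrophage list alone is also low in saline (-1.37).

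Antigen presentation and chemokine genes fell in part with the interferon genes. Of 25 interferon gamma and antigen presentation genes, 18 fell and 0 rose after DT (median -0.78), 4 fell in saline and 11 differed downward from saline. The saline count was 1 without replicate 1 or 2 of saline at 24 h or replicate 2 of saline at 96 h, and 2 without replicate 4 of 96 h. H2-D1, a classical class I heavy chain, had 261, 199, 239 and 244 CPM at 96 h, against 367, 395, 443 and 439 CPM at 24 h, with no overlap (-0.80 ± 0.11, adjusted p = 4.71e-06; difference from saline -0.78, adjusted p = 0.00148). B2m, the class I light chain, averaged 266 CPM at 96 h and 528 CPM at 24 h (-0.99, adjusted p = 1.11e-05). Cxcl10, a chemokine for T cells, fell after DT (-1.45 ± 0.13, adjusted p = 7.13e-08) and after saline (-1.11, adjusted p = 5.11e-05), and the difference between them did not pass the test (-0.34, adjusted p = 0.256).

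The class II genes H2-Aa, H2-Ab1 and Cd74, which are known from antigen-presenting leukocytes, fell after both treatments. Cd74 averaged 18 CPM at 96 h and 50.7 CPM at 24 h after DT (-1.52, adjusted p = 0.00663; saline -1.66, adjusted p = 0.0282). The macrophage markers moved with them. Of the 15 macrophage and monocyte markers, 12 fell and 0 rose after DT (median -1.79), and their summed level ran from 175 to 213 CPM at 96 h, against 255 to 671 CPM at 24 h. C1qa, a complement component made by macrophages, had 6.37, 6.92, 7.28 and 5.84 CPM at 96 h, against 12.6, 58.6, 36.3 and 33.6 CPM at 24 h, with replicate 1 of 24 h lower than the rest of its group (-2.44 ± 0.44, adjusted p = 0.000269).

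In saline 8 of the macrophage markers fell (median -1.37), with sums from 162 to 264 CPM at 96 h and from 388 to 531 CPM at 24 h. That call count was 1 without replicate 1 or 2 of saline at 24 h, 4 without replicate 4 of 24 h, 0 without replicate 2 of saline at 96 h and 1 without its replicate 4. C1qa itself kept a saline change between -1.85 and -1.67 in those fits (-1.73 with all libraries). The difference between the treatments was called for 0 of the 15 markers by edgeR (for C1qa -0.71, adjusted p = 0.5). Siglec1, a macrophage receptor induced by interferon, fell after DT (2.46 CPM at 96 h and 13.7 CPM at 24 h; -2.45 ± 0.41, adjusted p = 0.000101). Within saline the macrophage markers were lower at 96 h and none of the 24 interferon genes was called. The summed level of the interferon list at 24 h was 568 to 658 CPM in saline libraries, against 1370 to 2080 CPM in DT libraries. The part of macrophage transcripts in the fall of the interferon genes was not tested.

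**Figure D5:**
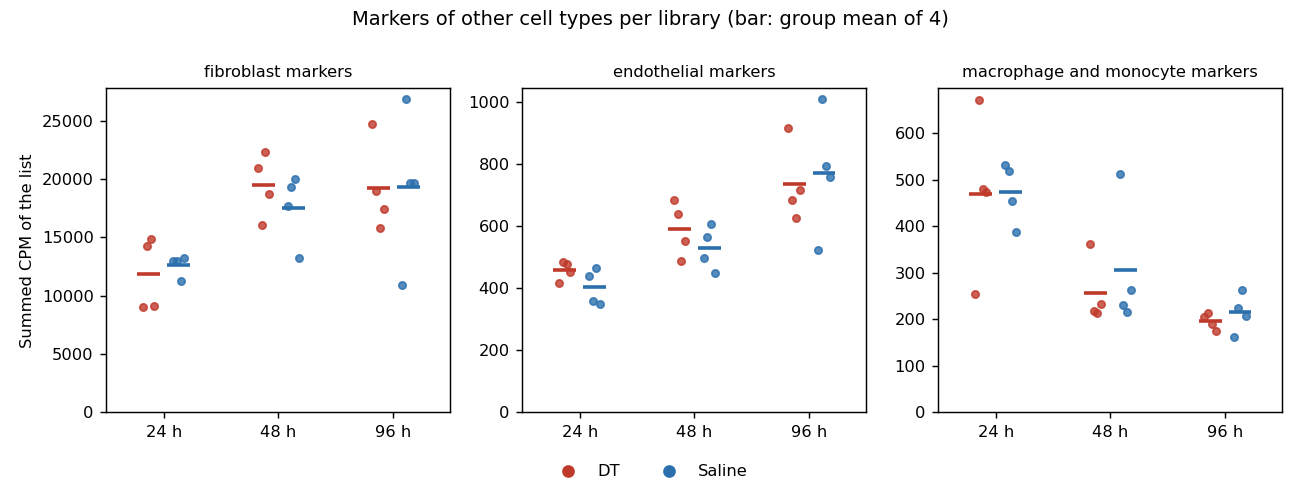
Summed CPM of the fibroblast, endothelial and macrophage marker lists in each library at 24, 48 and 96 h, DT left of saline. Macrophage sums are lower at 96 h in both treatments (175 to 213 CPM in DT, 162 to 264 CPM in saline), and replicate 1 of saline at 96 h has the lowest fibroblast sum of its group.

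Endothelial markers were next. Of 12 endothelial markers 8 rose and 0 fell after DT (median 0.67), and their sum was 625 to 916 CPM at 96 h, against 416 to 483 CPM at 24 h. In saline 11 rose (median 1.30; sums of 524 to 1010 CPM at 96 h and 349 to 466 CPM at 24 h), and the difference was called for 0. The DT count was 2 without replicate 1 of DT at 96 h, 5 without replicate 1 of DT at 24 h and 4 without its replicate 4. The saline count was 0 without replicate 2 of saline at 96 h, 7 without its replicate 3, and 5, 1 and 1 without replicates 1, 2 and 4 of saline at 24 h. Flt1, a receptor for VEGF, had 115, 103, 109 and 120 CPM at 96 h, against 66.7, 68.5, 58.8 and 70.3 CPM at 24 h after DT (0.76 ± 0.11, adjusted p = 2.35e-05). The 4 libraries of each time were close together and the times far apart. Among the largest saline increases was Emcn, a sialomucin of endothelial cells, with 27.3 CPM at 96 h and 7.59 CPM at 24 h in saline libraries (1.83, adjusted p = 0.0171).

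Of 15 fibroblast markers 2 rose after DT, Fn1 and Fap, a share below the 16.6% of all genes. Fn1 (fibronectin) had 12200, 9620, 8900 and 10300 CPM at 96 h, against 5500, 5980, 6420 and 4020 CPM at 24 h, with no overlap (0.90 ± 0.18, adjusted p = 0.000638). Fap did not pass without replicate 1 of DT at 96 h (0.72, adjusted p = 0.052). The fibroblast sum ran from 15800 to 24700 CPM at 96 h, against 9050 to 14900 CPM at 24 h after DT, and from 10900 to 26900 CPM at 96 h, against 11300 to 13200 CPM at 24 h after saline. Fn1, at the levels given above, is a large part of this sum, which therefore does not show the markers evenly. In saline 2 markers rose, 12 without replicate 1 of 96 h, whose sum was the 10900 CPM, and 0 without any other single saline library.

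Immediate early genes rose after both treatments. Of 21 immediate early and heat shock genes 14 rose and 1 fell after DT (median 0.39), and 5 rose and 2 fell after saline. Fosb, a subunit of the AP-1 transcription factor, had 1060, 880, 1090 and 863 CPM at 96 h, against 392, 309, 322 and 373 CPM at 24 h after DT (1.48 ± 0.11, adjusted p = 5.45e-09). Saline libraries had 1440, 1660, 1580 and 1420 CPM at 96 h, against 620, 471, 739 and 557 CPM at 24 h (1.35, adjusted p = 1.49e-07). Both treatments showed a full separation of the times, and the difference did not pass the test (0.13, adjusted p = 0.648). Fos, Zfp36, Atf3 and Junb also rose after both treatments, with differences of 0.13 to 0.30 that did not pass the test.

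Egr3 and Nr4a1 rose more after DT than after saline. Egr3 had 175, 127, 243 and 163 CPM at 96 h, against 57.2, 38.8, 38 and 78.4 CPM at 24 h after DT (1.74 ± 0.22, adjusted p = 4.41e-06; difference from saline 1.24, adjusted p = 0.00921). Nr4a1 averaged 568 CPM at 96 h and 310 CPM at 24 h (0.87, adjusted p = 2.87e-05; difference 0.60, adjusted p = 0.0368). Of the heat shock genes, Hspa1b fell after DT (221 CPM at 96 h and 476 CPM at 24 h; -1.11, adjusted p = 2.08e-06) and after saline (-1.74, adjusted p = 1.49e-07). Dnajb1, a co-chaperone, had a DT change of 0.03 that did not pass the test (adjusted p = 0.862) and fell after saline (-0.71, adjusted p = 0.0012). Cells passed through a sorter (FACS) before RNA was taken, and the part of that handling in these genes was not tested.

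Hypoxia and glycolysis genes rose in part: 12 of 24 rose and 0 fell after DT (median 0.27), 5 rose after saline (median 0.36), and the difference was called upward for 2 and downward for 1. The saline count lay between 1 and 8 when single saline libraries were left out. Vegfa, the main angiogenic factor, had 395, 375, 485 and 337 CPM at 96 h, against 191, 167, 152 and 183 CPM at 24 h after DT, with no overlap (1.20 ± 0.12, adjusted p = 3.24e-07). It rose after saline too (0.64, adjusted p = 0.00869), and the difference (0.55, adjusted p = 0.0368) lost its call in 7 of the other settings. Slc2a1, the glucose transporter GLUT1, averaged 402 ± 66 CPM at 96 h and 246 ± 20.7 CPM at 24 h (0.71 ± 0.11, adjusted p = 2.88e-05). The glycolytic enzymes Pkm, Tpi1, Hk1 and Ldha had DT changes between -0.14 and 0.02 that did not pass the test.

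Of 12 goblet cell genes 1 rose and 1 fell after DT, against 16.6% and 20.9% of all genes, while 4 fell after saline and 5 differed upward. Fcgbp, a protein of the mucus layer, was the gene that rose, with 139, 138, 231 and 210 CPM at 96 h, against 86.7, 78.3, 62.8 and 133 CPM at 24 h after DT (0.99 ± 0.23, adjusted p = 0.00228). The groups did not overlap, and the difference from saline (1.03, adjusted p = 0.0432) lost its call in 12 other settings. Spdef, a transcription factor of goblet cells, was the gene that fell (-0.49, adjusted p = 0.0164). Tff3, a peptide secreted with mucus, had 2.25, 1.72, 4.97 and 1.67 CPM at 96 h, against 1.54, 2.46, 3.51 and 2.4 CPM at 24 h after DT, fully overlapping (0.00, adjusted p = 0.998). Saline libraries had 3.64, 2.05, 1.32 and 2.19 CPM at 96 h, against 4.44, 11.6, 12.1 and 12.2 CPM at 24 h (-2.09, adjusted p = 0.00445). The difference was 2.09 (adjusted p = 0.0111). The count of 5 fell to 3 without replicate 1, 2 or 3 of DT at 24 h or replicate 2 of saline at 96 h, and to 2 without replicate 3 of DT at 96 h or replicate 2 of saline at 24 h. The saline count of 4 fell to 2 without replicate 2 of either time.

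Of 15 Paneth cell and antimicrobial genes 4 rose and 2 fell after DT, against 16.6% and 20.9% of all genes, and 4 differed upward from saline, against 4.08%. In saline 1 rose and 4 fell, and the 4 were 1 without replicate 2 of saline at 96 h and 2 without its replicate 3 or without replicate 2 or 4 of saline at 24 h. The list joins Paneth cell genes with other antimicrobial genes, so its counts are no measure of Paneth cells. Nos2, the inducible nitric oxide synthase, rose after DT (5.27 CPM at 96 h and 1.78 CPM at 24 h; 1.52, adjusted p = 0.00136), with a saline change of 1.36 (adjusted p = 0.026) that lost its call in 8 other settings. Its DT groups overlapped, with 2.76 to 6.66 CPM at 96 h and 1.22 to 3.06 CPM at 24 h. Reg4, a secreted lectin, averaged 27.3 CPM at 96 h and 24.3 CPM at 24 h after DT (0.15, adjusted p = 0.716), and 22.3 CPM at 96 h and 67.2 CPM at 24 h after saline (-1.58, adjusted p = 0.0105). Reg3b, an antimicrobial lectin, had 56, 48.7, 30.4 and 37 CPM at 96 h, against 15, 25, 21 and 10.4 CPM at 24 h after DT. The groups did not overlap, but the call (1.26 ± 0.44, adjusted p = 0.0288) was lost in 7 other settings, among them limma (1.21, adjusted p = 0.0877). Lyz2, which is also a macrophage marker, fell (-1.79, adjusted p = 0.000419), as did Pla2g2a. The count of 4 that rose was 2 without replicate 4 of DT at 24 h or replicate 1 of DT at 96 h, and the 4 that differed from saline were 2 without replicate 2 or 3 of DT at 24 h, replicate 4 of saline at 24 h or replicate 2 of saline at 96 h.

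The list of the fetal-like, regenerating epithelium had 18 measured genes, of which 4 rose and 6 fell after DT, against 16.6% and 20.9% of all genes, and 5 differed downward from saline. Ly6a (Sca-1), a surface protein of regenerating crypts, had 219, 150, 148 and 187 CPM at 96 h, against 354, 386, 537 and 312 CPM at 24 h, with no overlap (-1.17 ± 0.17, adjusted p = 2.42e-05; difference from saline -1.39, adjusted p = 0.000879). Ly6a is also induced by interferon. Anxa1 and Anxa3, annexins of the same list, fell (-0.34 and -0.54), and Spp1 (osteopontin) rose with 1920 ± 378 CPM at 96 h and 838 ± 280 CPM at 24 h (1.19 ± 0.26, adjusted p = 0.00129). Clu, a marker of revival stem cells, averaged 9150 CPM at 96 h and 7780 CPM at 24 h and did not pass (0.23, adjusted p = 0.0533).

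Of 15 YAP targets 6 fell and 1 rose after DT, against 20.9% and 16.6% of all genes. From saline 4 differed downward, against 7.82%. The 6 became 3 without replicate 1 of DT at 24 h. F3, tissue factor, averaged 65.1 ± 11.1 CPM at 96 h and 145 ± 25.4 CPM at 24 h (-1.16 ± 0.16, adjusted p = 8.61e-06; difference from saline -1.34, adjusted p = 0.000516). Ankrd1 averaged 18.7 ± 3.33 CPM at 96 h and 38 ± 6.31 CPM at 24 h (-1.03 ± 0.18, adjusted p = 0.000125). The common YAP targets Ccn1 and Ccn2 did not pass the test (-0.16, adjusted p = 0.167, and 0.43, adjusted p = 0.0589).

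Among 23 genes of the ATF4 stress response 10 fell and 4 rose after DT, against 20.9% and 16.6% of all genes. The share that rose was near that of all genes. From saline 8 differed downward, against 7.82%. The members that fell include the serine and one-carbon enzymes. Psat1 averaged 40.2 ± 1.45 CPM at 96 h and 75.9 ± 12.2 CPM at 24 h (-0.92 ± 0.09, adjusted p = 2.78e-07), and Mthfd2 averaged 14.1 and 23.8 CPM (-0.76 ± 0.12, adjusted p = 6.09e-05). Atf4 itself fell (-0.40, adjusted p = 0.000297), while Chac1 and Ddit3, targets tied to stronger stress, did not pass. The count of 8 was 5 without replicate 3 of DT at 24 h, replicate 2 or 3 of DT at 96 h or replicate 1 of saline at 24 h. It was 4 without replicate 2 or 4 of saline at 24 h or replicate 3 of saline at 96 h.

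The counts of the following lists stand against 16.6% of all genes that rose and 20.9% that fell after DT. Of 15 BMP and TGF-beta targets 7 rose and 0 fell (median 0.38), led by Smad7, a feedback inhibitor with 95.7 ± 2.46 CPM at 96 h and 72.2 ± 4.5 CPM at 24 h (0.41 ± 0.07, adjusted p = 9.93e-05), which rose after saline too (0.35). Of 20 EGFR ligand and ERK feedback genes 7 rose and 1 fell, and the difference from saline was called for 0. Of 20 ER chaperone genes 6 rose and 0 fell, led by Xbp1 (207 ± 3.84 CPM at 96 h and 148 ± 8.24 CPM at 24 h, log2 change 0.49, adjusted p = 8.94e-06). The median of this list was 0.12 after DT and 0.12 after saline, and the difference was called for 0 members. Xbp1 in saline libraries had 233 to 293 CPM at 96 h, against 205 to 224 CPM at 24 h. Of 21 p53 targets 8 rose and 4 fell, the share that fell being near that of all genes, with 1 differing from saline, and the 4 were 2 in 6 of the fits with a library left out. Of 21 NF-kB and inflammatory genes 1 rose and 7 fell, 4 without replicate 2 of DT at 24 h or replicate 3 of DT at 96 h. Nfkbiz was the gene that rose (0.82 ± 0.09, adjusted p = 9.81e-07).

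Of 14 Notch pathway genes 2 rose and 1 fell, the ligands Jag1 and Dll4 against the ligand Dll1. The list median was 0.14 after DT and 0.23 after saline, and 0 members differed upward from saline. Dll1, known from secretory progenitors, averaged 9.86 ± 1.78 CPM at 96 h and 14.3 ± 1.02 CPM at 24 h (-0.55 ± 0.12, adjusted p = 0.000925; difference from saline -0.98, adjusted p = 0.000683). In the differentiation lists, against the same 16.6% and 20.9% of all genes, 1 rose of 17 enteroendocrine, 1 rose and 1 fell of 17 tuft cell, 1 rose of 13 enterocyte, 1 rose and 2 fell of 15 gastric type, and 1 rose of 11 metallothionein and zinc handling genes. Of the sparse leukocyte lists, 1 of 5 neutrophil markers rose (Mmp9, which other cells also make), and 1 of 2 T and NK cell markers, 2 of 10 mast cell markers and 2 of 3 B and plasma cell markers fell. The remaining member of the last list, Xbp1, rose and is the ER gene given above.

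The largest increases beyond these lists were mostly of genes at low level. Genes named for the size of their DT change, Fn1 among them, were chosen from those without overlap. Their lack of overlap is therefore no added support. Shank1, a scaffold protein of synapses, had 22.3, 26.8, 30.6 and 28.8 CPM at 96 h, against 9.17, 7.91, 3.59 and 8.26 CPM at 24 h, with no overlap (1.93 ± 0.22, adjusted p = 1.19e-06; difference from saline 1.77, adjusted p = 0.00062). Aldh1a3, an enzyme of retinoic acid synthesis, had 96.4, 154, 96.5 and 90.6 CPM at 96 h, against 28.3, 32.3, 45.4 and 37.6 CPM at 24 h (1.60 ± 0.17, adjusted p = 6.31e-07; difference from saline 1.27, adjusted p = 0.00141). Prlr, the prolactin receptor, had the largest change, 4.57 ± 1.51 (adjusted p = 0.0223), but 46.1, 2.11, 21.6 and 1.16 CPM at 96 h, against 0.857, 0.878, 0.554 and 0.733 CPM at 24 h. Replicates 1 and 3 of 96 h carried nearly all of the level, and the call was lost with limma (2.96, adjusted p = 0.283), without replicate 1 of DT at 96 h (3.40, adjusted p = 0.103) and without replicate 2, 3 or 4 of DT at 24 h (0.0508 to 0.0631).

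Gzme, a granzyme of a cluster of near-identical genes, averaged 13.4 ± 8.87 CPM at 96 h and 1.92 ± 0.985 CPM at 24 h (2.75 ± 0.53, adjusted p = 0.000404). Col10a1, Ccbe1, Selp and Slit1 rose by 1.63 to 1.75 on the log2 scale after DT, and their differences from saline (0.10 to 0.77) did not pass the test. Fstl4, Capn6, Wfdc18 and Prss56 rose after DT by 0.82 to 1.51, and each differed upward from saline by 1.43 to 2.02. Capn6, an atypical calpain, had 15.2, 12.6, 13.6 and 17.7 CPM at 96 h, against 2.83, 8.36, 8.46 and 2.1 CPM at 24 h (1.36 ± 0.40, adjusted p = 0.0115), and saline libraries averaged 26.2 CPM at 96 h and 41.5 CPM at 24 h.

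Among the decreases outside the interferon and macrophage groups, the noncoding RNA Mirt1 had 4.45, 3, 4.11 and 1.86 CPM at 96 h, against 28.1, 23.4, 16.5 and 14 CPM at 24 h (-2.60 ± 0.24, adjusted p = 9.52e-08; difference from saline -2.95, adjusted p = 4.75e-05). Krt5, a keratin of basal and squamous cells, had 15.9, 9.23, 7.53 and 10.2 CPM at 96 h, against 35.4, 52.2, 58.3 and 22.8 CPM at 24 h (-1.96 ± 0.37, adjusted p = 0.00033), and the groups did not overlap. By difference of level, the largest decreases were those of Krt18, Ly6e, Atp5b, Txnip and Ifitm3. Krt18, a keratin of simple epithelium, had 2310, 2040, 2270 and 2150 CPM at 96 h, against 2690, 2790, 3230 and 2580 CPM at 24 h (-0.37 ± 0.08, adjusted p = 0.00101), and processed copies may share its reads. The largest increases of level were those of Fn1, Spp1, Fos, Thbs1 and Fosb. Thbs1, thrombospondin, averaged 2360 ± 222 CPM at 96 h and 1580 ± 131 CPM at 24 h (0.57 ± 0.11, adjusted p = 0.000213).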

How the data were processed

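Each library came as a table of 36528 genes by Entrez identifier with raw counts and RPKM. The counts per gene were made by the authors from reads aligned with GSNAP to GRCm38, per the submitters' processing notes, and the use of strand in counting is not given in the sources used here. The RPKM values were also deposited by the authors and were not used for a test. Of the identifiers, 31049 (85.0%) were found in RefSeq GRCm38.p6, which gave the symbols. Samples were grouped by the treatment and time in the labels.

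Genes passing filterByExpr by group (17468) were fitted in 1 edgeR quasi-likelihood model over all 24 libraries (edgeR 4.0.16, R 4.3.3, TMM scaling, robust, 18 residual degrees of freedom, two-sided). The contrasts tested were DT at 96 h minus 24 h, saline at 96 h minus 24 h, and the difference between them, each adjusted by the Benjamini-Hochberg method over all genes at 0.05. SE is the log2 change divided by the root of F. Alternatives used DESeq2 1.42.0, limma 3.58.1 with voom, other scalings and filters, fewer libraries, a replicate block and each library left out. The steps were tested on simulated data.

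The comparison and the 38 gene lists were chosen with earlier results of these data known. Named genes were Lgr5; the 10 largest log2 changes and then the 5 largest CPM differences in each direction after DT, and the 5 largest log2 changes in each direction in saline, among called genes of at least 10 CPM in 1 group whose groups did not overlap; the 6 largest differences in each direction among genes called both after DT and in the difference and of at least 10 CPM in 1 of the 4 groups; and, from each list, the 4 (or fewer) genes whose p after DT was smallest. Other list members in the text, Thra and Pnliprp2 were chosen after their values were seen. Replicate numbers were not taken as a pairing in the main fit. Deviations of same-numbered libraries correlated between -0.21 and 0.067 across the DT times and between 0.019 and 0.182 across the saline times. Over all pairs of groups they ran from -0.369 to 0.365, and 16 of 60 were over 0.1. Some list members count in the totals but are not reported here by name.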

Additional observations from a re-analysis of the deposited data

Results flagged for a closer look

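Among 192 group values of 48 named genes, 5 had 1 library far from the other 3 by Dixon's test, and chance gives about 1 in 20. Aldh1a3 had 154 CPM in replicate 2 of DT at 96 h, against 90.6 to 96.5 CPM in the others. Col13a1 had 15.2 CPM in replicate 1 of DT at 96 h, against 6.51 to 6.87 CPM, and Hecw2 had 8.29 CPM in the same library, against 5.06 to 5.46 CPM. In replicate 1 of saline at 24 h, Col10a1 had 10.1 CPM, against 3.88 to 4.65 CPM, and Tff3 had 4.44 CPM, against 11.6 to 12.2 CPM.

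The change between 24 and 96 h differed between DT and saline tumours by edgeR's test of the difference itself for 12 named genes, the 6 with the largest differences in each direction among genes also called after DT and of at least 10 CPM in 1 of the 4 groups. It was more upward after DT for Reg3b (2.22, adjusted p = 0.02), Capn6 (2.02, adjusted p = 0.0181), Shank1 (1.77, adjusted p = 0.00062), Fstl4 (1.55, adjusted p = 0.0135), Wfdc18 (1.52, adjusted p = 0.00141) and Prss56 (1.43, adjusted p = 0.00901). For Reg3b it did not pass without replicate 4 of saline at 24 h (1.70, adjusted p = 0.0513). It was more downward after DT for Oas3 (-3.23, adjusted p = 6.1e-06), Mirt1 (-2.95, adjusted p = 4.75e-05), Oas1g (-2.52, adjusted p = 5.08e-06), Hecw2 (-2.41, adjusted p = 0.00166), Bst2 (-2.34, adjusted p = 9.6e-06) and Krt5 (-2.33, adjusted p = 0.00728). Hecw2 moved in opposite directions, by -0.93 after DT and 1.48 after saline, and each of these calls was lost in several other settings.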

How the results depend on the processing

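Over all genes, no DT count moved by more than 1.5 times in any alternative, while counts of some lists did, as given beside them: with a library left out, 5393 to 6660 genes were called, 2192 to 3297 higher and 3062 to 3695 lower. Saline counts did move. The 563 calls became 321 without a low-count filter, 978 with DESeq2, 1167 with limma and 322 with only the 8 libraries compared. The 365 higher became 234, 633, 579 and 155 in those settings, and 233 with the 16 libraries of 24 and 96 h. The 198 lower became 87 without the filter, 345 with DESeq2 and 588 with limma. The 713 genes with an upward difference became 401 without the filter and 1280 with limma. The cause was not tested.

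With a library left out, saline calls ran from 91 to 1218 (50 to 967 higher, 41 to 285 lower) and calls of the difference from 1577 to 2369 (529 to 1063 upward, 860 to 1492 downward). The downward difference was 860, 898 and 888 without replicates 2, 3 and 4 of saline at 24 h, against 1366. Lgr5 ranged from 0.61 to 0.68 after DT, from -0.29 to -0.18 after saline and from 0.83 to 0.95 for the difference. With a replicate block, 6342 genes were called after DT, 531 after saline and 1850 for the difference, and Lgr5 changed by 0.64. The labels do not say that replicate numbers pair the samples. Of 13867 alternative values for genes 333 lost and 202 gained a call, and 0 reversed. Genes with few counts were not tested: 17468 of 36528 passed the filter.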

Other observations

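Of 22 pancreatic-type digestive enzyme genes, a group not described above, 6 passed the filter on low counts, and 2 of these rose and 1 fell after DT, against 16.6% and 20.9% of all genes. Ctrb1, a chymotrypsinogen, had 0.125, 0.0982, 0 and 0.0642 CPM in DT libraries at 96 h, against 1.71, 1.69, 0.776 and 1.71 CPM at 24 h (-4.02 ± 0.54, adjusted p = 6e-06 in edgeR). Ctrb1 was at most 0.393 CPM in all other libraries of the series, so it passed the filter only through the DT libraries of 24 h. That route favoured a fall and groups without overlap. The call of Ctrb1, the 1 decrease counted above, is therefore no added support. The difference from saline did not pass the test (-4.05, adjusted p = 0.0597). Clps (colipase) had 1.71, 1.23, 4.02 and 1.35 CPM at 96 h, against 0.6, 1.09, 0.665 and 1.12 CPM at 24 h after DT (1.15 ± 0.44, adjusted p = 0.0433), and its difference from saline was 2.52 (adjusted p = 0.00755). Cela2a, an elastase, was the other gene that rose (0.73, adjusted p = 0.0456). The 2 that rose became 0 without replicate 2 of DT at 24 h or replicate 1 of DT at 96 h, and 1 without any other DT library of these times or without replicate 2 or 4 of saline at 96 h.

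The lipase-related genes Pnliprp1 and Pnliprp2 did not pass the test after DT. Pnliprp1 had 28.1, 21.7, 116 and 36 CPM in DT libraries at 96 h, against 15.2, 24.9, 16 and 41.3 CPM at 24 h, which overlap (1.01 ± 0.58, adjusted p = 0.178). Saline libraries had 269 to 503 CPM at 96 h, against 413 to 708 CPM at 24 h, all above every DT library of these times. Pnliprp2 averaged 27.6 CPM at 96 h and 9.91 CPM at 24 h after DT, and 567 CPM at 96 h and 734 CPM at 24 h after saline. The difference between the DT and saline changes did not pass the test for either gene (adjusted p = 0.26 and 0.327).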
